A study of Mus musculus with 6 samples.

Results

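The genes described here encode the machinery of autophagy. They are 40 mouse genes listed by name for their function, at a time when earlier results of these data were known, and matched by symbol to the deposited expression table. That table names 30037 genes. All 40 were present, and all 40 were among the 15454 genes that were tested, those that reached a value of 1 or more in 3 or more libraries. RNA came from L-GMP cells, leukaemia cells resembling granulocyte and macrophage progenitors, taken by cell sorting from bone marrow of AML (acute myeloid leukaemia) mice 8 to 10 weeks old. The groups were 3 wild-type libraries and 3 Prmt6-/- libraries. Prmt6 encodes an arginine methyltransferase. The labels do not say which oncogene drove the leukaemia or whether each library of a genotype was a separate animal. The p-values below therefore reflect the spread among these 6 libraries, part or all of which may be technical.

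Autophagy encloses portions of cytoplasm in a double membrane, the autophagosome, and delivers them to the lysosome for breakdown. A kinase complex built around ULK1 starts the process, a lipid kinase complex around PIK3C3 marks the membrane, and a pair of ubiquitin-like conjugation reactions attaches LC3 and GABARAP proteins, the ATG8 family, to the growing membrane. Cargo receptors such as SQSTM1 (p62) bind both the cargo and the ATG8 proteins and are themselves degraded on the way. In blood-forming tissue the pathway is known for its part in the maintenance of stem cells and in the turnover of mitochondria.

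Values are deposited log2 expression values, and a difference is the knockout mean less the wild-type mean on that scale. Ratios on the linear scale are computed from that difference. They lie nearer to 1 where the deposited scale compresses differences, as at low level. Library values are listed in the order of the libraries' numbers. Prmt6 stood at 7.82, 7.60 and 7.41 in the libraries labelled wild type. In those labelled knockout it stood at 5.42, 5.46 and 5.48 (difference -2.16, SE 0.098, limma adjusted p = 3.57e-06), which checks the labels. The authors' deposited table gives a log2 fold change of -7.66 for Prmt6. Library medians over the tested genes lay between 7.72 and 7.75, and pairs of libraries correlated across genes at 0.9987 to 0.9992 where they shared a genotype and at 0.9933 to 0.9961 where they did not. Read depth is unknown because the values are not counts. Markers of L-GMP cells were present, with wild-type means of 10.14 for Kit, 10.44 for Cd34, 13.28 for Fcgr3 and 15.58 for Mpo, while Ly6a (2.62) and Il7r (3.93), low in this population, were low. Of 10 such markers, 2 were higher (Elane 1.45, Meis1 0.49) and 1 lower (Fcgr2b -0.88) in the knockout. Of 27 markers of other blood and vessel cell types, none was listed at 0 and 21 were tested. Of these, 3 (14.3%) were higher, against 15.0% of all tested genes, and 6 (28.6%) lower, against 18.0%. The lower genes included the monocyte genes Csf1r (-1.83) and Cd68 (-0.94), and Cd79b, which fell more than Cd68. The higher genes were Camp (0.97), Cd3d (0.44) and Klf1 (0.22). The summed linear level of the 27 markers was 11331 to 11736 in the wild-type libraries and 7224 to 8562 in the knockout libraries. This sum rests mostly on the markers with the highest levels, Cd68, Pecam1, Emr1, Flt3, Csf1r and Cd79b, and says little about the rest. Its part in the results below was not tested. In bulk RNA, fewer cells of a type and less RNA per cell cannot be told apart.

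Of the 40 autophagy genes, 21 passed the test at an adjusted p under 0.05 (limma, Benjamini-Hochberg over all tested genes), 17 lower and 4 higher in the knockout. The lower genes included the cargo receptor gene Sqstm1 (-0.84), the ATG8 gene Gabarap (-0.63), and Atg13 (-0.90) and Ulk1 (-0.35) of the initiation complex. The higher genes were the transcription factor gene Foxo3 (0.55), the kinase gene Ulk2 (0.31), and Atg5 (0.26) and Atg3 (0.20) of the conjugation machinery. Without knockout library 2 only 2 genes were higher, Ulk2 and Atg3 losing their call. The share passing was 52.5%, against 33.0% of all tested genes. By direction, 42.5% of the autophagy genes were lower, against 18.0% of all tested genes, and 10.0% were higher, against 15.0%. The autophagy genes had mean levels of 6.56 to 13.51. Among the 8980 tested genes within that range, 44.1% passed, 25.7% lower and 18.4% higher, so the share passing was nearer to that of genes of like level than to that of all genes. These shares were not tested against each other. The median difference of the 40 genes was -0.09, that of all tested genes 0.01 and that of genes within the same range of level -0.03. The median of the 40 genes was -0.05 under intensity-dependent centring and -0.02 under quantile normalization of the deposited values. The 2 genotypes' libraries did not overlap for 26 of the 40 genes, against 47.4% of all tested genes. The 21 genes that passed are all among the 26. Because the test used the same values, a lack of overlap reported below for a gene that passed adds no support to its call.

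**Figure D1:**
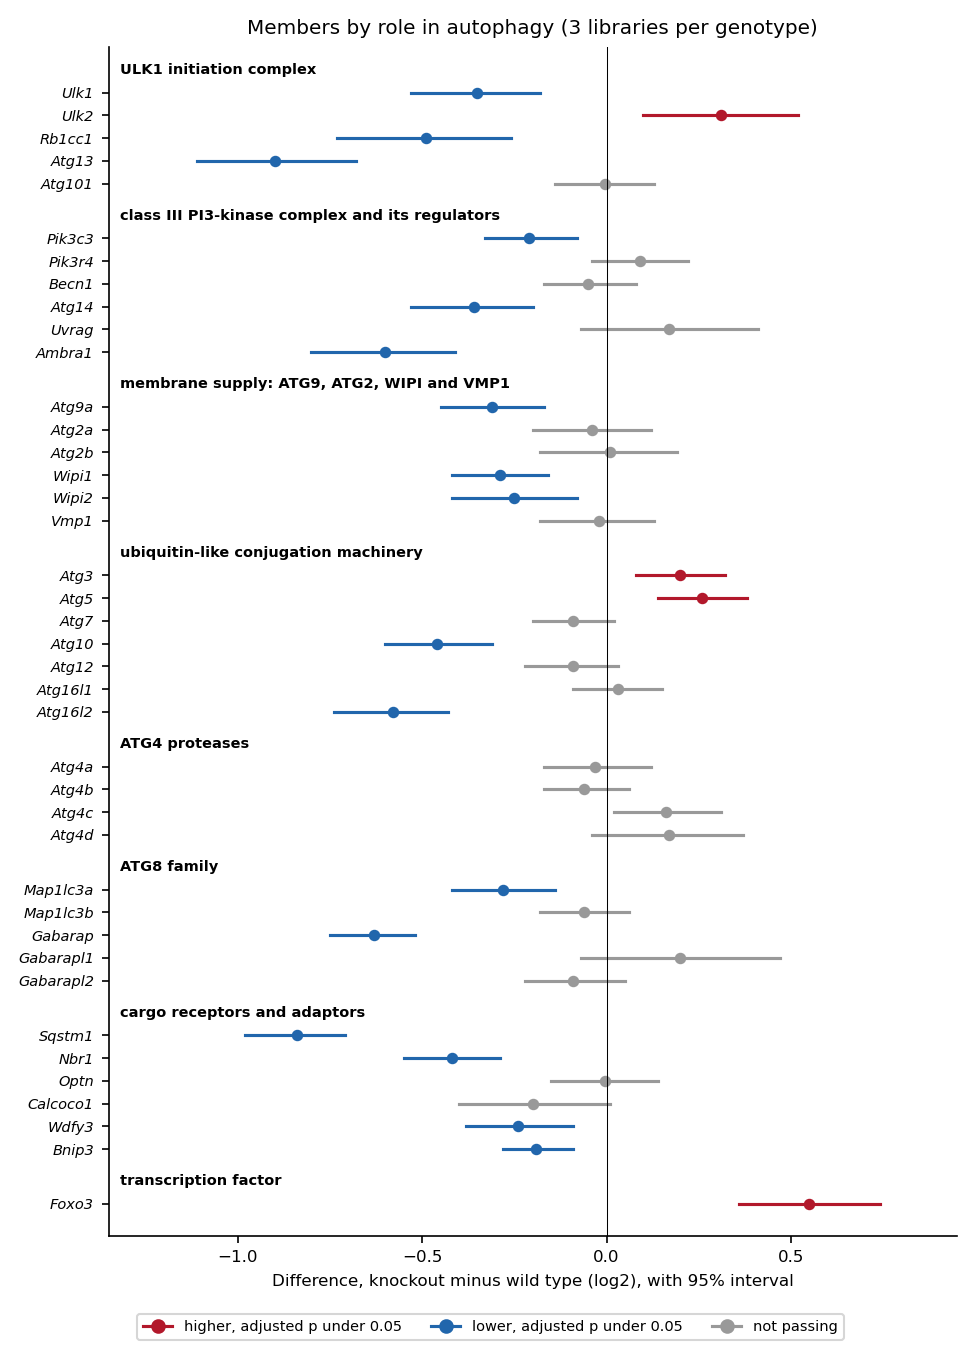
The 40 autophagy genes by role, with the difference between knockout and wild type on the log2 scale as points and its 95% interval as bars. Blue points mark the 17 genes that were lower and red points the 4 that were higher; Atg13 lies farthest to the left at -0.90 and Foxo3 farthest to the right at 0.55.

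**Figure D2:**
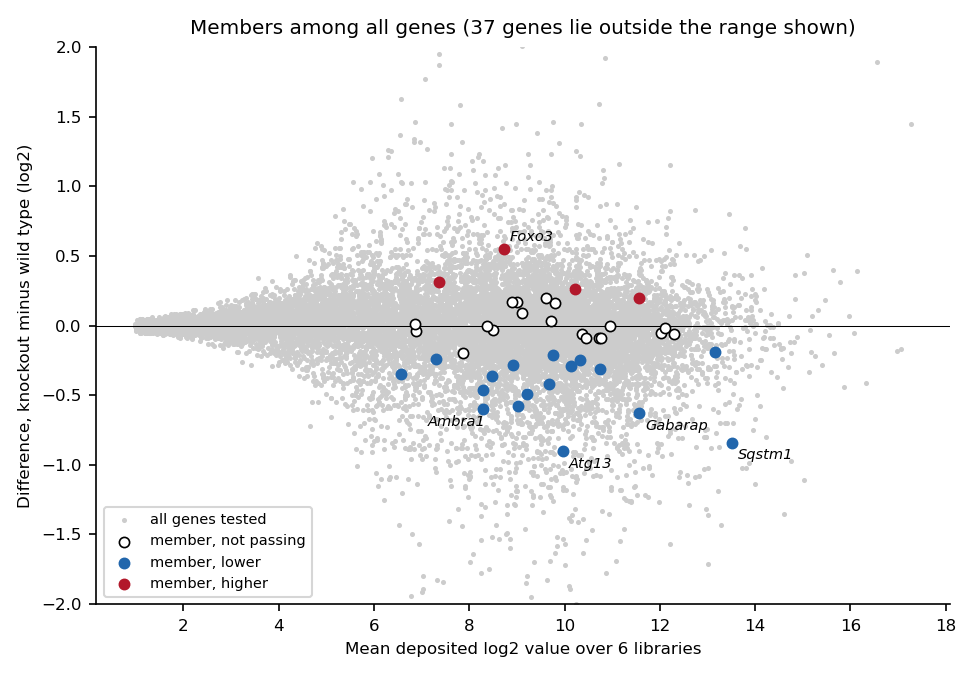
Mean deposited log2 value over 6 libraries (horizontal axis) against the difference between knockout and wild type (vertical axis, log2) for the 15454 tested genes in grey, of which 37 lie outside the range shown, and the 40 autophagy genes as larger points. The differences of genes at low level are compressed towards 0, and the autophagy genes lie between mean levels of 6.56 and 13.51.

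Promoter sequences were looked up for printing for the genes that rose and for the 4 with the largest falls. Other genes that passed were left out of the printing. RefSeq promoter windows (GRCm38.p6) matched 33 of the 40 genes, and the 250 bases before the transcription start were searched on both strands. Only bases outside every annotated exon are printed, 5′ to 3′ on the gene's strand, where at least 100 such bases remained. This left 5 of 8 promoters. Those of Sqstm1, Gabarap and Atg3 are not printed. Atg13 and Ambra1, the only falls printed, lie in the stretch of chromosome 2 described below. Capitals mark matches to the motifs named after the sequences, of which the Foxo3 and Ambra1 stretches hold none. The Foxo3 sequence is chr10:42276756-42276945 (minus strand, bases -250 to -61 from the start), Ulk2 is chr11:61855093-61855342 (minus), Atg5 is chr10:44268089-44268338 (plus), Atg13 is chr2:91710593-91710842 (minus) and Ambra1 is chr2:91729888-91730133 (plus, bases -250 to -5).
Foxo3: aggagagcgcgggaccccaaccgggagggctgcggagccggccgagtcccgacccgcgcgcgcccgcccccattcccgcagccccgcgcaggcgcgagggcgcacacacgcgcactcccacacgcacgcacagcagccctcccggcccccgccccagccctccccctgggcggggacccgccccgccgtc
Ulk2: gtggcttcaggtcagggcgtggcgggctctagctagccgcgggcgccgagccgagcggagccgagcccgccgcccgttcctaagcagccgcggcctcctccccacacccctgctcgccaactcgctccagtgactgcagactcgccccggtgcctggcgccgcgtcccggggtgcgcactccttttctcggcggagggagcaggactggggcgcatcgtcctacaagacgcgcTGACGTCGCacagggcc
Atg5: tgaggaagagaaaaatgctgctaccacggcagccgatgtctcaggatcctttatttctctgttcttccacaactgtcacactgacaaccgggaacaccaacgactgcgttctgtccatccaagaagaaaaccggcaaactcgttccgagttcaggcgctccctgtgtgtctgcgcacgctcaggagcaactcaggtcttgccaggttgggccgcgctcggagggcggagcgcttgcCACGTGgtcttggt
Atg13: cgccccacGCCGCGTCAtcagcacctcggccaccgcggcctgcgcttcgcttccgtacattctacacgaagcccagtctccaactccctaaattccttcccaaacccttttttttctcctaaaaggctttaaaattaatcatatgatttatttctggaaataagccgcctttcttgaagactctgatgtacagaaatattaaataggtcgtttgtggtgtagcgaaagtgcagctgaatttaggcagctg
Ambra1: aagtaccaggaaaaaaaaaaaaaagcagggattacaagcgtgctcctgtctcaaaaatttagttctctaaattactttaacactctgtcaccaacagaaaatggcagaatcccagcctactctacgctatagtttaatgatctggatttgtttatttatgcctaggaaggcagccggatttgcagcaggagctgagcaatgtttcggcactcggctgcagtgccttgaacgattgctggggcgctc
The Foxo3 stretch had a GC content of 81.6% and the Ambra1 stretch 43.9%. The median window of the autophagy genes had 59.4% GC, against 52.4% over all windows.

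Of the motifs searched, the E-box core CACGTG, bound by basic helix-loop-helix factors, was found upstream of 4 of the 33 autophagy genes (12.1%), namely Atg3, Atg5, Atg7 and Bnip3, against 6.86% of all genes with a window. In Atg5 it lay at bases -14 to -9. The longer TCACGTGA, the motif of TFEB and TFE3, contains that core and was found only upstream of Atg3 among the 33 (bases -72 to -65), against 0.907% of all genes. The core of the NRF2 antioxidant response element, TGACNNNGC, was found upstream of Atg13, Ulk2 and Vmp1, 9.09% against 11.5% of all genes. In Ulk2 it lay at bases -17 to -9 and in Atg13 at bases -242 to -234. The FOXO motif TGTTTAC and the AP-1 motif TGANTCA were in none of the 33 windows, against 3.54% and 7.82% of all genes. The shares of all genes are over 27025 genes with a window, including genes that were not tested here. They were not matched for GC content. A match describes letters in the window and not a bound site.

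Of the 5 genes of the ULK1 initiation complex, 3 fell, 1 rose and 1 did not pass. Of all tested genes, 18.0% fell and 15.0% rose. Of the 3 that fell, Atg13 lies in the stretch of chromosome 2 described below. There 84.8% of genes with a mean of at least 7 were lower. Atg13 (a protein-coding gene at chr2:91674618-91710576 in the GENCODE models of GRCm38, from which all gene positions below are taken), the adaptor that holds the complex together, stood at 10.42, 10.35 and 10.47 in the wild type and at 9.31, 9.54 and 9.70 in the knockout (difference -0.90, SE 0.094, adjusted p = 1.57e-04). Its knockout level was 0.537 times the wild-type level on the linear scale, and the authors' deposited table gives a log2 fold change of -1.07. Rb1cc1, which encodes the scaffold FIP200, had wild-type values of 9.60, 9.57 and 9.20 and knockout values of 8.95, 9.01 and 8.94 (-0.49, SE 0.10, adjusted p = 0.00635). The third wild-type library was the lowest of its group for Rb1cc1, and the groups did not overlap for either gene. Of the exonic sequence of Rb1cc1, 12.8% (counted in words of 31 bases) is shared with other annotated genes, between which reads cannot be assigned with certainty.

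The kinase genes Ulk1 and Ulk2 moved in opposite directions. Ulk1 (chr5:110784488-110810097) stood at 6.79, 6.70 and 6.71 in the wild type and at 6.31, 6.31 and 6.52 in the knockout (-0.35, SE 0.076, adjusted p = 0.00699). Ulk2 (chr11:61775649-61855073), whose promoter is printed above, stood at 7.32, 7.33 and 7.01 in the wild type and at 7.57, 7.47 and 7.54 in the knockout (0.31, SE 0.094, adjusted p = 0.0323). The groups did not overlap for either gene, and the third wild-type library was low for Ulk2. The Ulk2 call was lost without any of knockout libraries 1, 2 or 3 (adjusted p = 0.0974, 0.0625 and 0.0791) and also when wild-type library 3 was left out, with a difference of 0.20 (adjusted p = 0.0626). Both genes lie at low level, where the deposited scale compresses differences: the authors' deposited table gives log2 fold changes of -0.88 for Ulk1 and 0.56 for Ulk2. Atg101, the partner that stabilises ATG13, differed by -0.0042 (SE 0.061, adjusted p = 0.966, interval -0.14 to 0.13).

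Of the 6 genes of the class III PI3-kinase complex and its regulators, 3 fell, against 18.0% of all tested genes. None rose, against 15.0%. Among genes of the level range given above, 25.7% fell. Of the 3 that fell, Ambra1 lies in the stretch of chromosome 2 described below. Ambra1 (chr2:91730134-91918849), a regulator of BECN1 and of ULK1 ubiquitylation, stood at 8.60, 8.50 and 8.65 in the wild type and at 7.91, 7.88 and 8.16 in the knockout (-0.60, SE 0.087, adjusted p = 8.72e-04). Atg14, which directs the complex to the site of autophagosome formation, stood at 8.59, 8.62 and 8.78 against 8.28, 8.25 and 8.38 (-0.36, SE 0.073, adjusted p = 0.00499). Pik3c3, the catalytic lipid kinase, stood at 9.90, 9.81 and 9.88 against 9.68, 9.65 and 9.64 (-0.21, SE 0.055, adjusted p = 0.0184). All 3 knockout libraries lay below all 3 wild-type libraries for each of these genes. The Pik3c3 call was lost without knockout library 2 (adjusted p = 0.0639), knockout library 3 (0.0510) or wild-type library 1 (0.0557), and under quantile normalization (-0.14, adjusted p = 0.0926). Becn1, the regulatory subunit, differed by -0.05 (adjusted p = 0.554, interval -0.17 to 0.08), and 40.0% of its sequence is shared with other genes, chiefly Cntd1 on the opposite strand. The kinase-anchoring subunit gene Pik3r4 differed by 0.09 (adjusted p = 0.262). Uvrag, which encodes the subunit that takes the place of ATG14 in another form of the complex, differed by 0.17 (adjusted p = 0.249), and passed only without wild-type library 1 (0.30, adjusted p = 0.0152).

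Of the 6 genes of the membrane supply, 3 fell, against 18.0% of all tested genes and 25.7% of those in the level range given above. None rose, against 15.0% of all tested genes. Atg9a, the lipid scramblase carried on the first vesicles, stood at 10.87, 10.94 and 10.87 in the wild type and at 10.47, 10.63 and 10.65 in the knockout (-0.31, SE 0.062, adjusted p = 0.00472). For this gene 32.4% of the sequence is shared, chiefly with the overlapping annotation Gm29253. Wipi1 and Wipi2 encode proteins that bind the lipid made by PIK3C3. Wipi1 stood at 10.31, 10.26 and 10.27 against 9.97, 9.94 and 10.06 (-0.29, SE 0.056, adjusted p = 0.00429). Wipi2 stood at 10.35, 10.41 and 10.60 against 10.20, 10.13 and 10.27 (-0.25, SE 0.075, adjusted p = 0.0300). The knockout libraries were below the wild-type libraries for all 3 genes, with the smallest gap for Wipi2. The Wipi2 call was lost without knockout library 1 or 2 or wild-type library 2 or 3 (adjusted p = 0.0729, 0.109, 0.0577 and 0.0776), under quantile normalization (0.111) and under intensity-dependent centring (0.0525). The lipid transfer genes Atg2a and Atg2b differed by -0.04 and 0.01, and Vmp1, a scramblase of the endoplasmic reticulum, by -0.02. Their groups overlapped.

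Of the 7 genes of the conjugation machinery, 2 (28.6%) rose, against 15.0% of all tested genes, 2 (28.6%) fell, against 18.0%, and 3 did not pass. Atg5 (chr10:44268358-44364291), which is joined to ATG12 to form part of the lipidation enzyme, stood at 10.09, 10.05 and 10.13 in the wild type and at 10.34, 10.37 and 10.33 in the knockout (0.26, SE 0.052, adjusted p = 0.00491). Atg3, the E2-like enzyme that carries the ATG8 proteins, stood at 11.40, 11.50 and 11.47 against 11.73, 11.64 and 11.61 (0.20, SE 0.054, adjusted p = 0.0187). The knockout libraries were above the wild-type libraries for both genes, and those of Atg5 lay within a narrow span. The Atg3 call was lost without knockout library 1 (adjusted p = 0.0601), knockout library 2 (0.0529) or wild-type library 1 (0.0591).

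The falls in this group were in Atg16l2 and Atg10. Atg16l2, a relative of the scaffold gene Atg16l1, stood at 9.38, 9.27 and 9.29 in the wild type and at 8.66, 8.68 and 8.84 in the knockout (-0.58, SE 0.070, adjusted p = 3.17e-04). Atg10, the E2-like enzyme that joins ATG12 to ATG5, stood at 8.48, 8.59 and 8.46 against 8.02, 8.10 and 8.05 (-0.46, SE 0.064, adjusted p = 7.35e-04). For neither gene did the groups overlap. The E1-like enzyme gene Atg7 differed by -0.09 (adjusted p = 0.181) and the ubiquitin-like Atg12 by -0.09 (adjusted p = 0.226). Atg16l1, the scaffold of the lipidation enzyme, differed by 0.03 (adjusted p = 0.719, interval -0.09 to 0.15).

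None of the 4 ATG4 protease genes, whose enzymes trim the ATG8 proteins and release them from membranes, passed, against 33.0% of all tested genes. Their differences were -0.03 for Atg4a, -0.06 for Atg4b, 0.16 for Atg4c and 0.17 for Atg4d. Atg4c passed under quantile normalization (0.23, adjusted p = 0.0240) and without wild-type library 2 (0.22, adjusted p = 0.0480). Atg4d passed without knockout library 1 (0.27, adjusted p = 0.0178). Atg4a shares 60.8% of its sequence with other genes, chiefly the annotated copy Atg4a-ps, and its value is uncertain for that reason.

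Of the 5 ATG8 family genes, 2 (40.0%) fell, against 18.0% of all tested genes, and 3 did not pass. Gabarap (chr11:69991143-69994951) stood at 11.90, 11.85 and 11.92 in the wild type and at 11.19, 11.28 and 11.29 in the knockout (-0.63, SE 0.051, adjusted p = 4.46e-05). Its knockout level was 0.644 times the wild-type level on the linear scale. Map1lc3a, which encodes LC3A, stood at 9.03, 9.08 and 9.08 against 8.77, 8.73 and 8.85 (-0.28, SE 0.060, adjusted p = 0.00667). The groups did not overlap for either gene, and no part of the sequence of either is shared with other annotated genes. Map1lc3b, which encodes LC3B, the form most used as a marker of autophagosomes, differed by -0.06 (adjusted p = 0.408, interval -0.18 to 0.06). Gabarapl2 differed by -0.09 (adjusted p = 0.327). Gabarapl1 differed by 0.20 (adjusted p = 0.246), with wild-type values of 9.34, 9.39 and 9.83, and passed only without wild-type library 3 (0.35, adjusted p = 0.00645).

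Levels of the ATG8 genes can be compared per length, as the log2 value less log2 of the exonic length in kilobases. On that scale Gabarap was the highest in the wild type at 11.01, followed by Map1lc3b at 9.42, Gabarapl2 at 9.27, Map1lc3a at 8.82 and Gabarapl1 at 8.51. The SDs over the 3 wild-type libraries were 0.04, 0.08, 0.10, 0.03 and 0.27 in the same order, so that Map1lc3b and Gabarapl2, and Map1lc3a and Gabarapl1, were close relative to their spread. Exonic length was taken over all annotated transcripts, and the order depends on it. Among the 40 genes Gabarap ranked 3 on this scale, behind Sqstm1 (12.18) and Bnip3 (12.06), and Atg2b ranked 40 (3.11).

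Relative genes were compared within each library, as the difference between their log2 values, in 6 pairs chosen after their values had been seen. Gabarap exceeded Gabarapl1 by 2.56, 2.45 and 2.09 in the wild type and by 1.40, 1.57 and 1.64 in the knockout, a change of -0.83. Gabarap exceeded Gabarapl2 by 1.40 ± 0.11 in wild-type libraries and by 0.85 ± 0.03 in knockout libraries (SD, n = 3), a change of -0.55, and its difference from Map1lc3b went from -0.44 ± 0.08 to -1.01 ± 0.07, a change of -0.57. Gabarap was thus lower relative to each of these genes in every knockout library than in any wild-type library. Ulk2 exceeded Ulk1 by 0.53, 0.63 and 0.30 in the wild type and by 1.26, 1.17 and 1.02 in the knockout, a change of 0.66. Atg16l2 less Atg16l1 was -0.34, -0.39 and -0.43 in wild-type libraries and -1.09, -1.01 and -0.90 in knockout libraries, a change of -0.61. The smallest change was that of Map1lc3a less Map1lc3b, from -3.27 ± 0.06 to -3.49 ± 0.06, a change of -0.22. The groups did not overlap in any of the 6 pairs. Since the pairs were picked for their values, these are descriptions and no test is given.

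**Figure D3:**
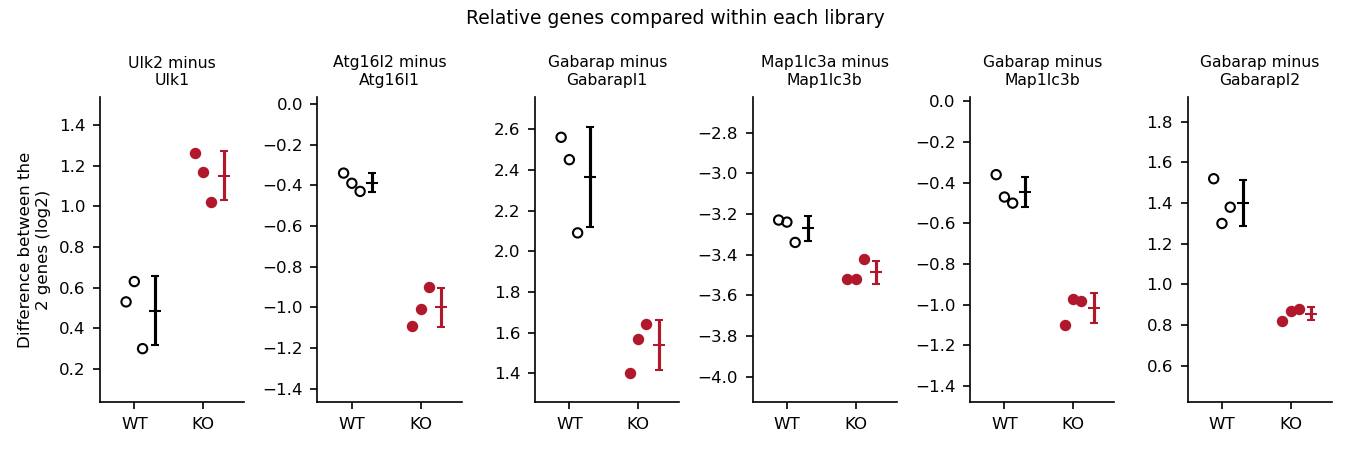
Difference between the log2 values of 2 related genes within each library, for 6 pairs, with 3 wild-type libraries (open) and 3 knockout libraries (filled); bars are the mean and SD. Each panel spans the same number of log2 units, and the groups do not overlap in any panel, from a change of -0.83 for Gabarap less Gabarapl1 to 0.66 for Ulk2 less Ulk1.

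Of the 6 cargo receptor and adaptor genes, 4 (66.7%) fell, against 18.0% of all tested genes, and none rose, against 15.0%. Sqstm1 (chr11:50199366-50210827), which encodes the receptor p62, stood at 13.83, 13.95 and 14.01 in the wild type and at 13.00, 13.14 and 13.12 in the knockout (-0.84, SE 0.060, adjusted p = 2.80e-05). Its knockout level was 0.557 times the wild-type level on the linear scale, and all 3 knockout libraries were below all 3 wild-type libraries. Per length it was the highest of the 40 genes. The opposite-strand gene Mrnip accounts for most of the 16.4% of its sequence that is shared with other genes, and the sources used here do not say whether counting used strand. Nbr1, a receptor of the same kind as p62, stood at 9.92, 9.85 and 9.86 against 9.47, 9.40 and 9.50 (-0.42, SE 0.056, adjusted p = 5.76e-04), again with no overlap between the genotypes.

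Wdfy3, which encodes the adaptor ALFY that links p62 bodies to the conjugation machinery, stood at 7.43, 7.45 and 7.37 in the wild type and at 7.21, 7.13 and 7.20 in the knockout (-0.24, SE 0.063, adjusted p = 0.0189). Bnip3, a receptor for mitochondria, stood at 13.21, 13.29 and 13.22 against 13.02, 13.06 and 13.07 (-0.19, SE 0.043, adjusted p = 0.00996). Wild-type and knockout libraries did not overlap for either gene, but neither call held throughout. That of Wdfy3 was lost without knockout library 2 (adjusted p = 0.0755), wild-type library 1 (0.0520) or wild-type library 2 (0.0641). That of Bnip3 was lost under quantile normalization, where the difference was -0.03 (adjusted p = 0.596), and under intensity-dependent centring, where it was -0.11 (adjusted p = 0.0793), and 57.0% of its sequence is shared with other genes, chiefly AC160336.1. Optn, a receptor for damaged mitochondria and bacteria, differed by -0.0032 (adjusted p = 0.975), and Calcoco1, a receptor for the endoplasmic reticulum, by -0.20 (adjusted p = 0.126).

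Foxo3 (chr10:42181841-42276755) encodes a transcription factor known to activate autophagy genes. It stood at 8.31, 8.50 and 8.55 in the wild type and at 8.88, 9.09 and 9.04 in the knockout (0.55, SE 0.084, adjusted p = 0.00123). The knockout level was 1.46 times that of the wild type on the linear scale. In the authors' deposited table the log2 fold change is 0.76. All 3 knockout libraries were above all 3 wild-type libraries, and this was the largest rise among the 40 genes. Of the 4 genes that rose, Foxo3 and Atg5 kept their call under each of the 12 refits of the data, and Ulk2 and Atg3 did not.

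**Figure D4:**
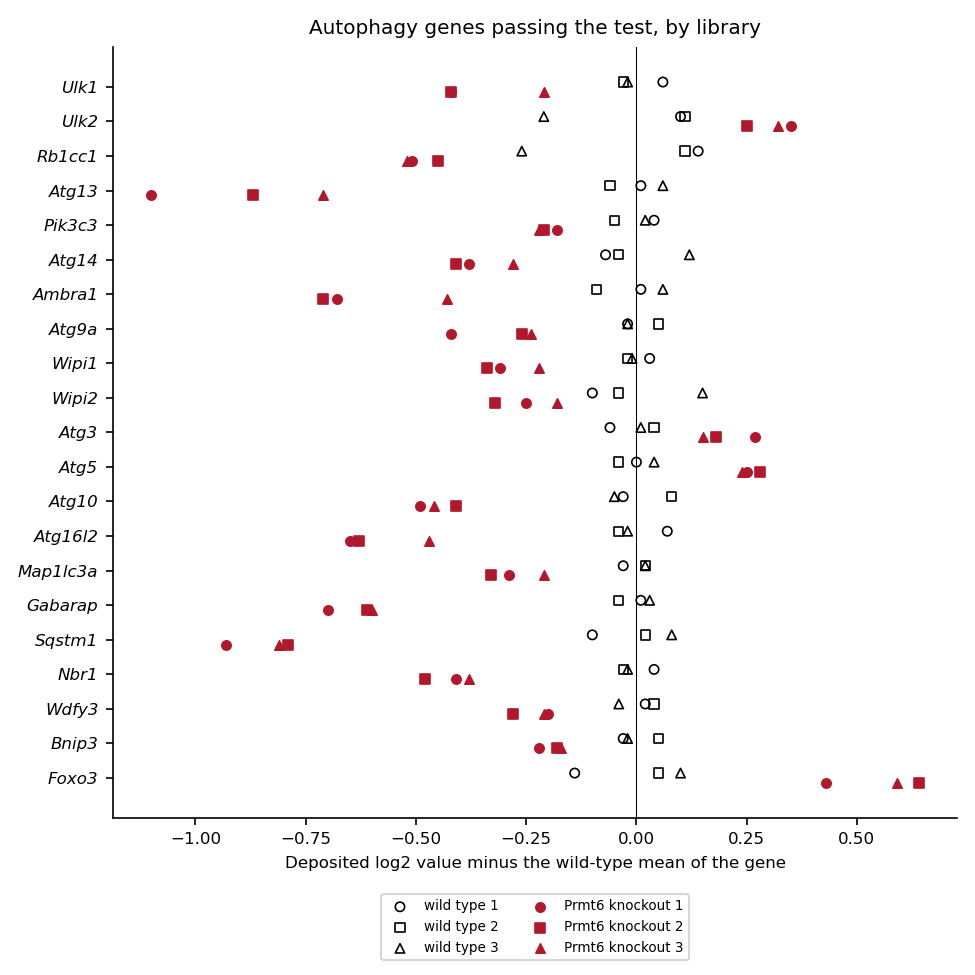
The 21 autophagy genes that passed, with each library's deposited log2 value less the wild-type mean of the gene (horizontal axis); open symbols are the 3 wild-type libraries and filled symbols the 3 knockout libraries. The groups do not overlap for any of the 21, which passed a test on these same values, nor for 47.4% of all tested genes. The third wild-type library (open triangle) lies below the other wild-type libraries for Ulk2 and Rb1cc1.

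The authors' deposited table, which gives a test of its own on the same libraries, called 21 of the 40 genes at an adjusted p under 0.05. These were the same 21 genes, all with the same direction, while the authors' deposited table called 31.0% of all genes tested here. It had 4 of the 40 higher, against 13.6% of those genes, and 17 lower, against 17.5%. Under quantile normalization of the deposited values 5 of the 40 genes were higher, against 18.3% of all tested genes, and 14 lower, against 15.4%. Under intensity-dependent centring 4 were higher, against 15.6%, and 15 lower, against 17.6%. The difference on the deposited scale was 0.403 times the log2 fold change of the authors' deposited table for Ulk1 and 0.919 times for Sqstm1, with a median of 0.806 over the 21 genes. The difference was smaller here also for Wdfy3 (-0.24, against -0.46 in the authors' deposited table) and Ambra1 (-0.60, against -0.90).

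Atg13 and Ambra1 lie close together on chromosome 2, with 19557 bases between them, and they were 2 of the 4 largest falls together with Sqstm1 and Gabarap. Harbi1 (chr2:91710852-91721545, difference -0.47) lies between them. It is on the strand opposite to Atg13 and starts just beyond the Atg13 promoter stretch printed above. Within 500 kb of the pair, 24 other genes were tested, of which 16 were lower and none higher, with a median difference of -0.48. The window, and the stretch below, were chosen after the values had been seen. Along the chromosome, a running median of 15 genes with a mean of at least 7 stayed at or below -0.3 from 57237635 to 119787537 (62.5 Mb). That stretch held 165 such genes, of which 140 (84.8%) were lower and 3 higher, with a median difference of -0.69 (quartiles -0.88 and -0.46). The rest of chromosome 2 held 521 such genes with a median of -0.01 and 22.6% lower, and the rest of the genome had 25.1% lower. Relative to the wild-type means, the median gene of the stretch lay at -0.75, -0.74 and -0.55 in the 3 knockout libraries and within 0.02 of 0 in the wild-type libraries. Of 19 stretches found by the same rule, the next had 9 genes, on chromosome 13. The other 38 autophagy genes lay outside all of them.

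**Figure D5:**
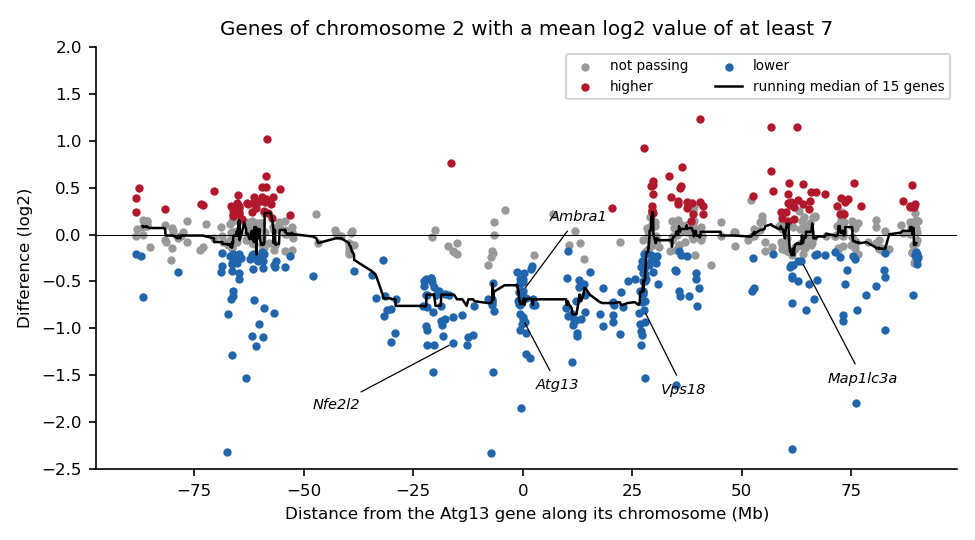
Difference between knockout and wild type (log2) for genes of chromosome 2 with a mean log2 value of at least 7, by distance from Atg13 in megabases, with the running median of 15 genes as a line; 2 genes lie outside the vertical range. The line stays at or below -0.3 over the stretch that holds Nfe2l2, Atg13, Ambra1 and Vps18, where the median difference is -0.69, and lies near 0 around Map1lc3a.

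The difference of Ambra1 (-0.60) lay within the quartiles of the stretch and that of Atg13 (-0.90) just below the lower of them. With the genes of the stretch left out and the adjustment of the p-values repeated, without a new fit, 15 of 38 autophagy genes were lower and 4 higher. Their median difference was -0.07. Outside the stretch 17.3% of all genes were lower and 15.3% higher. DNA copy number was not analysed here, and its part in the levels of the stretch was not tested.

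The genes around the core machinery were taken from 4 lists. Upstream of ULK1, nutrient sensing by mTORC1 and AMPK had 35 of 36 genes tested. Of these 35, 7 were higher, against 15.0% of all tested genes, and 1 was lower, against 18.0%. The other 27 did not pass. The share passing was 22.9%, below the 33.0% of all tested genes. Deptor, an inhibitor of mTOR, stood at 7.87, 7.97 and 7.99 in the wild type and at 8.65, 8.77 and 8.56 in the knockout (0.72, adjusted p = 1.44e-04). Nprl3, a subunit of the GATOR1 complex that restrains mTORC1, differed by 0.40 (adjusted p = 0.00173), Ddit4, a stress-induced inhibitor of mTORC1, by 0.55 (adjusted p = 0.00307), and Rragd, a Rag GTPase, by 0.25 (adjusted p = 0.00544; 1.63 in the authors' deposited table, as the gene is weakly expressed). For these 4 genes, those of the list with the smallest p, the groups did not overlap. The list's median difference was -0.04.

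Downstream, the list of autophagosome maturation and fusion with the lysosome had 21 genes, of which 5 (23.8%) were higher, against 15.0% of all tested genes, and 9 (42.9%) lower, against 18.0%. Among genes of the level range given above, 18.4% were higher and 25.7% lower. The list's median difference was -0.10. Epg5, a tethering factor, rose from 6.74, 6.78 and 6.69 to 7.70, 7.51 and 7.48 (0.83, adjusted p = 8.73e-05). Vps11 (-0.76, adjusted p = 1.05e-04) and Vps18 (-0.80, adjusted p = 5.16e-04), both core subunits of the HOPS tethering complex, fell, as did the SNARE gene Vamp8 (-0.76, adjusted p = 5.30e-04). Vps18 lies in the stretch of chromosome 2 described above. The groups did not overlap for these 4 genes.

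Selective receptors and mitophagy genes outside the core had 22 genes, of which 10 (45.5%) were lower, against 18.0% of all tested genes, and 1 (4.55%) higher, against 15.0%, with a median difference of -0.14. Among the lower genes, Bnip3l, a receptor for mitochondria, differed by -0.43 (adjusted p = 9.29e-04), the ferritin receptor gene Ncoa4 by -0.39 (adjusted p = 9.35e-04) and the mitochondrial receptor gene Fundc1 by -0.41 (adjusted p = 0.00152). The groups of these genes did not overlap. Of 12 transcriptional regulators, 5 (41.7%) were higher, against 15.0% of all tested genes, and 3 lower, against 18.0%, with a median difference of -0.02. Nfe2l2, which encodes NRF2, a factor known to induce Sqstm1, stood at 11.46, 11.47 and 11.74 in the wild type and at 10.23, 10.33 and 10.64 in the knockout (-1.16, adjusted p = 1.09e-04), and it lies in the stretch of chromosome 2. Hif1a, a factor known to induce Bnip3, differed by -0.42 (adjusted p = 0.00233), Tfe3, of the family that controls lysosomal genes, by -0.33 (adjusted p = 0.00453), and the stress factor gene Ddit3 by 0.72 (adjusted p = 8.07e-04).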

How the data were processed

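Poly(A) RNA of 6 libraries of sorted L-GMP cells was sequenced. Per the submitters' processing notes, Trim Galore, kallisto and HOMER were used with GRCm38. Versions, the annotation and the use of strand are not given in the sources used here. Per the file headers, HOMER's differential expression command was run on a table of counts. The deposited expression values are on a log2 scale (-1.97 to 18) and were normalized by the authors. The authors' deposited table gives for each gene a log2 fold change with a raw and an adjusted p-value, from an unnamed test. 1 row naming no gene was left out.

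The genotypes' libraries were compared in R 4.3.3 with limma 3.58.1 (mean-variance trend, two-sided, Benjamini-Hochberg adjustment over 15454 genes that reached 1 or more in 3 or more libraries) on the deposited log2 values, checked on simulated data. SE is limma's standard error and intervals are 95%. No pseudocount was used, as the values came on a log2 scale. The genes and lists were chosen with earlier results of these data known. Named were each gene that passed, Prmt6, and up to 4 genes per further list by smallest p. A gene that this rule would name is not reported here. For 7 listed genes the table uses an older symbol. Gene positions, exonic lengths and shared 31-base words come from GENCODE gene models of GRCm38, and promoter windows from RefSeq. Alternatives were other filters, normalizations and variance models, a replicate block, each library left out, and the authors' deposited call. The replicate numbers are shared between the genotypes, but the labels do not say that they pair samples.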

Additional observations from a re-analysis of the deposited data

How the results depend on the processing

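No called difference of an autophagy gene changed sign under any of the 14 other settings tried, and 15 of the 21 genes that passed kept their call in each setting that tested them. Atg13 and Ambra1, 2 of these 15, were not tested where the stretch of chromosome 2 was left out. The 6 that lost their call in some setting were Ulk2, Pik3c3, Wipi2, Atg3, Wdfy3 and Bnip3. The median difference of the 40 genes was -0.02 under quantile normalization, where 5 were higher and 14 lower. Leaving out 1 library at a time gave 2 to 5 higher and 14 to 16 lower autophagy genes, a median of -0.10 to -0.08, 16 to 17 higher and 18 to 24 lower genes of the other autophagy lists, and 3888 to 4598 of all genes, against 5102. The lowest count of higher autophagy genes, 2, came without knockout library 2. With the replicate number as a block, 5074 genes passed, with 4 autophagy genes higher and 17 lower, and no call among the 40 changed. Whether the numbers pair the samples cannot be decided from the values, as the correlations were weak. Deviations from the group means of same-numbered libraries correlated at 0.134, 0.054 and 0.188 across 7727 genes. Those of differently numbered libraries correlated at -0.195 to 0.093. Each knockout library correlated best with the wild-type library of its number, but wild-type library 2 correlated best with knockout library 1 (0.093). Leaving out the stretch of chromosome 2 was added after seeing the data. It repeated only the adjustment, so its differences are those of the main fit. The pseudocount alternative was not run as the values came on a log2 scale. Depth is unknown, so no limit from counting can be given, and changes of weakly expressed genes are understated.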

Other observations

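The stretch of chromosome 2 that holds Atg13 and Ambra1 also holds Spi1, which encodes the myeloid transcription factor PU.1. Spi1 stood at 14.17, 14.29 and 14.23 in the wild-type libraries and at 13.12, 13.08 and 13.41 in the knockout libraries (difference -1.02, SE 0.082, limma adjusted p = 4.31e-05). Spi1 was singled out after its values had been seen. As for the stretch as a whole, the third knockout library was the nearest to the wild type.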
